A study of Bos taurus and Bos grunniens and Bubalus bubalis with 15 samples.

Results

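The proteasome genes were measured in longissimus dorsi, the long back muscle, of cattle (Qinchuan breed), yak (Qinghai) and buffalo (Guangxi) on Affymetrix bovine arrays. A gene was taken when the only platform symbol of its probe set began with PSM, a letter from A to G and a digit. This gave 46 probe sets of 40 genes among 24016 probe sets, of which the single-symbol ones name 9155 genes. Of the 40 genes, 39 encode proteasome subunits, assembly chaperones, activators or an inhibitor. The other, PSME3IP1, carries the symbol of a protein that binds an activator and is no subunit. Where a gene had several probe sets, the one with the highest mean over the 15 arrays stood for it.

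There were 5 groups of 3 arrays, which the labels call biological replicates, from animals aged 36 months. The 3 cattle groups were intact males, castrated males and females of the Qinchuan breed, born within a 30-day span, of similar genetic background and raised under the same conditions. The yak and buffalo groups carry no sex in the labels and no statement on rearing, so species, sex, herd and rearing cannot be told apart in their comparisons with cattle. All probes hold cattle sequence, so a lower or higher transcript level and a different match to the probes cannot be told apart in yak and buffalo either. The purpose named for the series was to compare the cattle groups with each other and cattle muscle with that of the other 2 species.

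The 26S proteasome degrades proteins tagged with ubiquitin and carries much of the turnover of contractile proteins in skeletal muscle. Its 20S core is a barrel of alpha rings, which gate the entrance, and beta rings, which hold the cutting sites. A 19S regulatory particle caps the barrel, where a ring of ATPases unfolds the substrate and the non-ATPase subunits capture the ubiquitin chain and remove it. In cells exposed to interferon, inducible beta subunits replace the constitutive catalytic ones and form the immunoproteasome. Other activators can bind the barrel in place of the 19S particle, and dedicated chaperones assemble the core and the base.

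The platform symbols covered 6 of 8 alpha genes, 7 of 7 constitutive beta genes, 3 of 4 inducible or tissue-specific beta genes, 6 of 6 ATPases and 7 of 11 other 19S subunits. Among genes with a PSM symbol, they also covered 3 of 3 base assembly chaperones, 3 of 4 activators, 1 of 1 inhibitor and 3 of 4 core assembly chaperones. PSMA2, PSMA8, PSMB11, PSMD3, PSMD7, PSMD8, PSMD12, PSME3 and PSMG4 were not analysed here. All 40 genes passed the filter on dim probe sets through their brightest probe set. Among all 46 probe sets 45 passed, and the exception was the second one of PSMD6.

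The arrays were close in their medians, at 6.71 to 6.81 on the log2(intensity + 16) scale. Their mean intensities were 304 to 313 in buffalo, below the 335 to 364 of all other arrays. Arrays have no read depth, and precision depends on how many there are and on the spread of each probe set between them. Skeletal muscle markers fitted the label: 9 of 12 were measured, with summed intensities of 91310 to 115000 over the 15 arrays. Intact males stood apart in markers of other cells. Their summed fibroblast markers were 29880 to 39880, against 10510 to 11240 in castrated males, 8028 to 9703 in females, 4194 to 5430 in yak and 3568 to 5887 in buffalo. Leukocyte markers, 13 of 15 measured, summed to 20380 in intact male 1 and to between 1046 and 4107 in the other 14 arrays. Among them, CD14 and CD68 reached 4292 and 3315 in intact males. The T cell gene CD3E went the other way, at 157.9 to 177.1 there and 187.1 to 209.1 in castrated males. CD3D, CD2 and CD79A stayed at or below 104 in all cattle. The 3' to 5' signal ratio of the actin control probes, which rises as RNA degrades, was 1.17 to 1.48 in cattle, 1.49 to 1.93 in yak and 1.42 to 1.73 in buffalo. In whole muscle, fewer cells of a type and less RNA per cell cannot be told apart.

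No proteasome gene passed the test between the cattle groups. Castrated against intact males gave 0 of 40 called, while 1.46% of all 14409 probe sets tested were called. Females against intact males gave 0 of 40 beside 5.50% of all probe sets, and females against castrated males gave 0 of 40 beside 0.0208%. The test was limma on log2(intensity + 16), with Benjamini-Hochberg adjustment over the 14409 probe sets and a threshold of 0.05. Without adjustment, 2 genes were higher and 0 lower in castrated than in intact males, 1 was higher and 2 lower in females than in intact males, and 0 were higher and 4 lower in females than in castrated males. The median log2 difference of the 40 genes was 0.07, -0.04 and -0.11 in these 3 comparisons, against 0.00, 0.01 and 0.00 over all probe sets tested. The median 95% interval reached 0.36 log2 units to either side, so smaller differences of a single gene lay within the error.

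PSMB10 and PSME4 had the smallest adjusted p among the 40 genes between cattle groups. They were picked on these values, so a gap between the arrays of the groups is no further support. PSMB10, the inducible subunit with trypsin-like activity, read 380.2, 383.1 and 376.6 in intact males, 557.0, 550.5 and 477.8 in castrated males and 452.6, 445.5 and 433.5 in females. The 3 cattle groups did not overlap for this gene. Castrated males were 0.46 log2 units above intact males (SE 0.12, limma adjusted p = 0.0932), which missed the threshold, and the adjusted p was 0.0313 with all 15 arrays fitted together.

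PSME4 encodes PA200, a large activator that binds the ends of the core. Its intensity was 449.0, 664.4 and 904.6 in intact males, 1281, 963.4 and 1040 in castrated males and 1213, 990.1 and 1341 in females. All 3 intact males lay below all castrated males and females. The log2 difference was 0.73 (SE 0.25, limma adjusted p = 0.152) for castrated males and 0.84 (SE 0.25, adjusted p = 0.0734) for females. Both passed without intact male 3, the highest of the intact males, at 0.97 (adjusted p = 0.0403) and 1.08 (adjusted p = 0.0187). Neither passed on leaving out any other single array. The difference of females also passed with all 15 arrays fitted together (adjusted p = 0.0411). The intact males were also the arrays with the high fibroblast markers. Of 10 leukocyte markers tested, 4 were lower in females than in intact males, among them CD68 at -3.60 and MSR1 at -3.50 log2 units. In castrated against intact males 0 passed. CD3E stood at 0.11 in females and 0.24 in castrated males against intact males, and neither passed. The leukocyte sums were 20380, 4107 and 2829 in intact males 1, 2 and 3, and those of the other 6 cattle lay between 1046 and 1998. The part of these cells in the PSMB10 and PSME4 values was not tested.

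**Figure D1:**
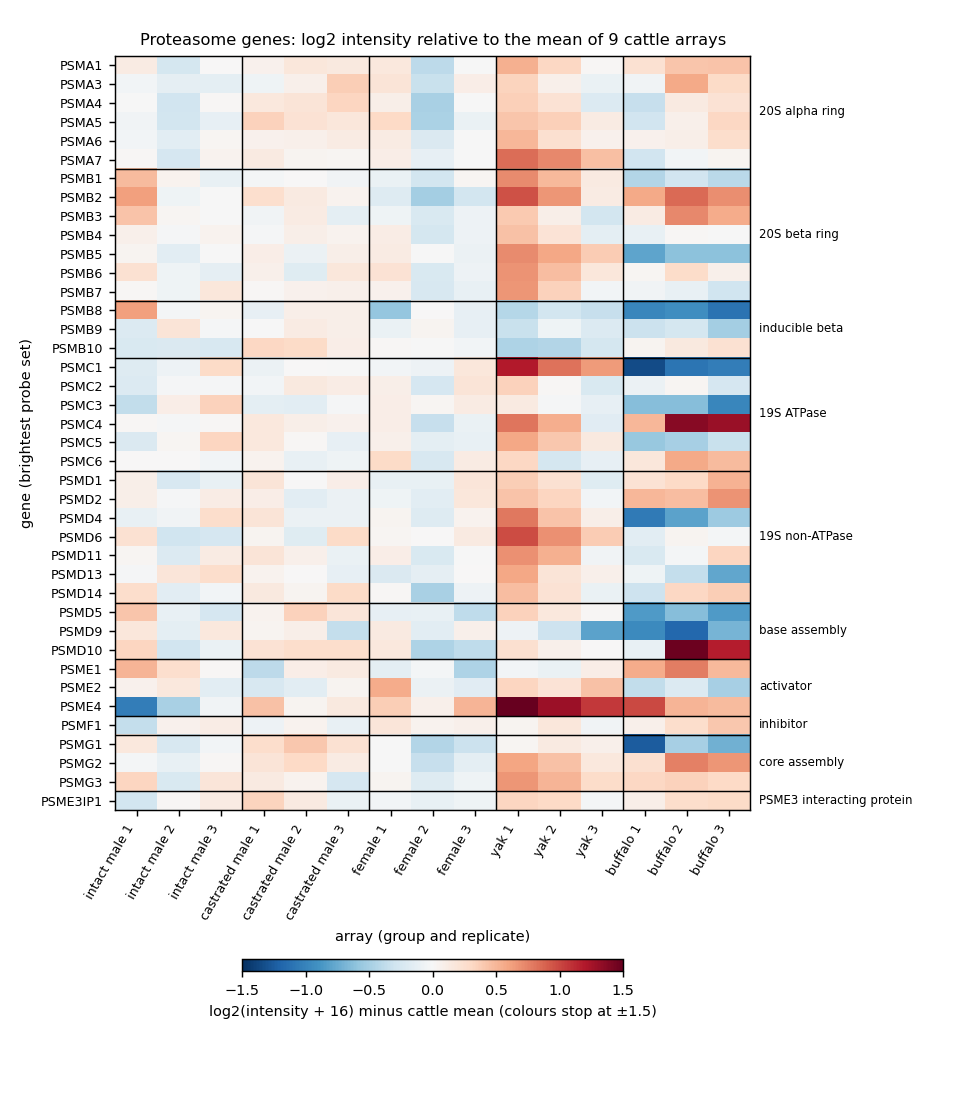
Each row is a proteasome gene, each column 1 of the 15 arrays, and the colour gives log2(intensity + 16) minus the mean of the 9 cattle arrays, with black lines between roles. The columns of yak 1 and yak 2 are mostly red and that of yak 3 is mixed, with medians over the genes of 0.43, 0.24 and 0.01. PSME4 and PSMC1 are the deepest red rows in yak. The buffalo columns hold deep blue (PSMC1, PSMB8, PSMD9) and deep red (PSMC4) rows, and PSMD10 is deep red in buffalo 2 and buffalo 3 but not in buffalo 1.

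In yak against cattle muscle, 13 of the 40 genes were higher and 1 was lower, and 26 did not pass. Among all probe sets tested, 13.2% were called higher and 15.9% lower. The median log2 difference of the 40 genes was 0.25, against -0.02 over all probe sets. Of the 40 values 33 were above 0, beside 46.8% over all probe sets. The genes varied together from array to array, as given below, so these values are not independent of each other. Leaving out yak 1 reduced the calls to 5 higher and 2 lower, and leaving out yak 2 to 5 higher and 1 lower, while 18 were higher and 1 lower without yak 3. PSMA7, PSMB5, PSMC1, PSMD6 and PSME4, all higher, and PSMB10, lower, passed in each of the 21 alternative settings.

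Among the alpha subunits, 2 of 6 were higher in yak, beside 13.2% of all probe sets tested. The median log2 difference was 0.28 over the 6. PSMA7, an alpha ring subunit, read 11418, 10523 and 8705 in yak and between 5334 and 7010 in the 9 cattle, with a median of 6525. All yak arrays lay above all cattle arrays, by 0.67 log2 units (SE 0.10, limma adjusted p = 0.000317). The other call was PSMA6 at 0.27, which was lost without yak 1, without yak 2 and in 9 further settings. The 4 alpha genes that did not pass also had values above 0.

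Of the constitutive beta subunits, 4 of 7 were higher in yak, beside 13.2% of all probe sets tested. The median log2 difference was 0.43 over the 7. PSMB5, the subunit with chymotrypsin-like activity, read 3661, 3340 and 2914 in yak, against a lowest, median and highest cattle intensity of 2005, 2218 and 2423. These ranges did not overlap, and yak was 0.56 log2 units higher (SE 0.09, limma adjusted p = 0.000894). PSMB1, a structural subunit of the beta ring, read 3353, 2869 and 2247 in yak and 1685 to 2850 in cattle, with a median of 2013. Yak 3 fell within the cattle range, and the difference was 0.44 (SE 0.13, adjusted p = 0.0256).

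PSMB6, which carries the caspase-like activity, read 3535, 3056 and 2485 in yak and 1882 to 2600 in cattle, with a median of 2110. It was 0.43 log2 units higher in yak (SE 0.13, limma adjusted p = 0.0258), with yak 3 again inside the cattle range. PSMB2 was higher by 0.58. The calls of PSMB1, PSMB2 and PSMB6 were lost without yak 1 (adjusted p = 0.178, 0.166 and 0.172) and without yak 2 (0.100, 0.0956 and 0.0957). PSMB7, the subunit with trypsin-like activity, read 3448, 2760 and 2116 in yak and 1840 to 2455 in cattle, with a median of 2196. Its difference of 0.32 did not pass (SE 0.13, adjusted p = 0.0722), except without yak 3, at 0.50 (adjusted p = 0.0109).

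In the 19S particle, 2 of 6 ATPases and 2 of 7 non-ATPase subunits were higher in yak and none was lower. Over all probe sets tested, 13.2% were higher and 15.9% lower. PSMC1, the ATPase Rpt2, whose tail helps open the gate of the core, read 3146, 2425 and 2132 in yak. The 9 cattle read 1197 to 1675, with a median of 1331, so that the lowest yak array lay above the highest cattle array. Yak was 0.88 log2 units higher (SE 0.13, limma adjusted p = 0.000433). PSMC5, the ATPase Rpt6, read 2277, 2011 and 1686 in yak and 1301 to 1903 in cattle, with a median of 1540. These ranges overlapped, and the difference was 0.37 (SE 0.13, adjusted p = 0.0407), a call lost in 9 settings, among them without yak 1 (adjusted p = 0.220) and without yak 2 (0.131).

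PSMD4, or Rpn10, is a receptor for ubiquitin chains. It read 2750, 2142 and 1680 in yak and 1381 to 1907 in cattle, with a median of 1524. Yak 3 lay inside the cattle range, and the log2 difference of 0.43 passed (SE 0.15, limma adjusted p = 0.0476) and was lost in 14 of the 21 settings. The other call was PSMD6, or Rpn7, a lid subunit, at 0.68 (SE 0.15, adjusted p = 0.00404). Its yak arrays read 2723, 2223 and 1789, all above the cattle arrays.

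The largest difference in yak was that of PSME4. This activator gene read 3192, 2308 and 1981 in yak and 449.0 to 1341 in cattle, with a median of 990.1. Every yak array lay above every cattle array, by 1.37 log2 units (SE 0.20, limma adjusted p = 0.000379). PSME1 and PSME2, the subunits of the PA28 activator, did not pass (PSME2 did without female 1, at 0.40, adjusted p = 0.0187), nor did the inhibitor gene PSMF1 at 0.05. Of the core assembly chaperones, PSMG2 and PSMG3 were higher, at 0.40 and 0.48, and both calls were lost without yak 1 (adjusted p = 0.185 and 0.0895) or yak 2 (0.120 and 0.0576). None of the 3 base assembly chaperones with a PSM symbol passed. PSMD9 read 288.0, 242.3 and 166.9 in yak against 234.3 to 343.4 in cattle, with a median of 320.4. Its difference of -0.40 (adjusted p = 0.0748) passed without yak 1, at -0.56 (0.0449). Fibroblast markers were lower in yak for 5 of 6 genes and the actin ratio was higher, as given above, while the GAPDH ratio of 1.2 to 1.26 lay inside the cattle range. Of 10 leukocyte markers tested, 1 was lower in yak. Of 9 muscle markers, 2 were lower in yak (ACTA1 at -0.34 and MYH7 at -0.49) and 0 higher. Over all probe sets tested, 15.9% were lower and 13.2% higher. The part of these in the yak values was not tested.

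**Figure D2:**
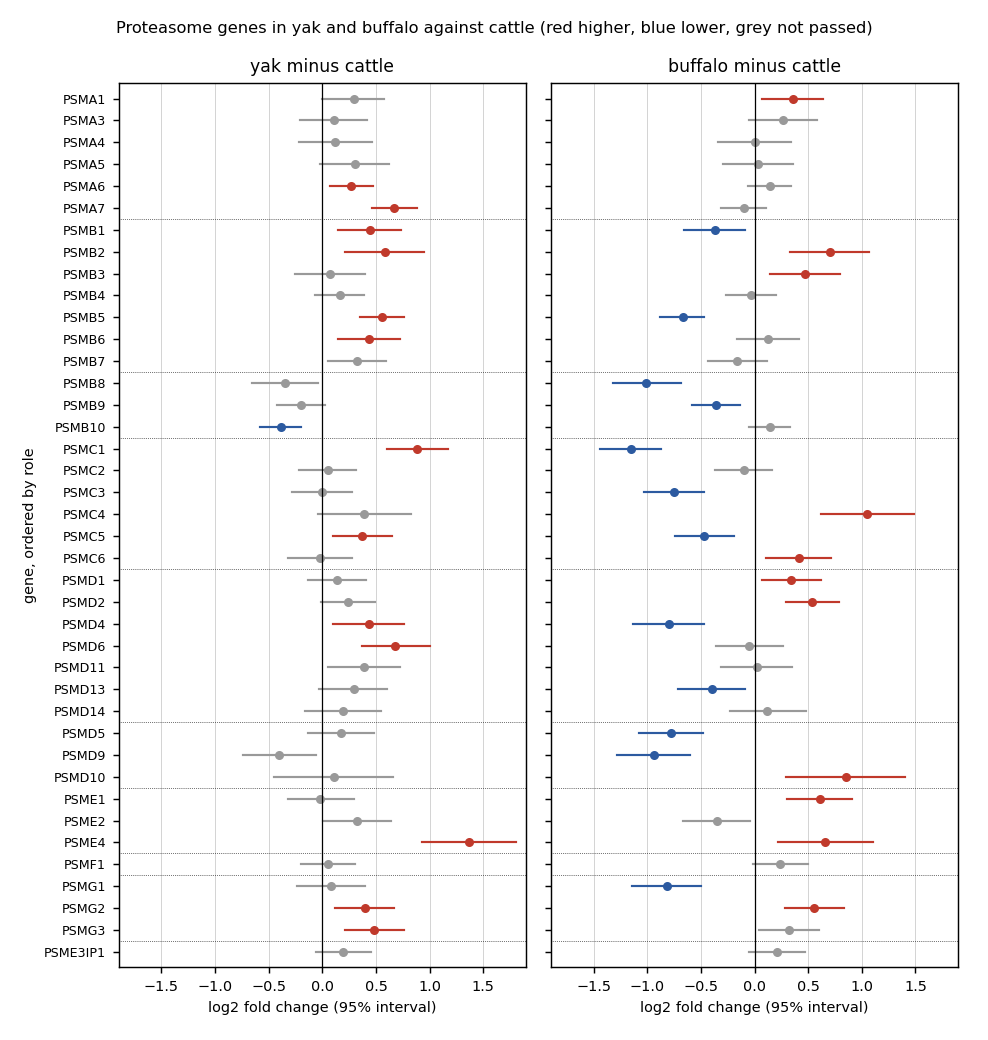
Points give the log2 difference of each of the 40 genes, and bars its 95% interval from limma, for yak minus cattle (left) and buffalo minus cattle (right), with red for called higher, blue for called lower and grey for not passed. Yak has 13 red points and 1 blue one, and buffalo has 11 red and 12 blue, and both panels share the 9 cattle arrays.

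Of the 40 genes, 11 were higher, 12 were lower and 17 did not pass in buffalo against cattle. The shares, 27.5% and 30.0% of the 40, were near those over all probe sets tested, of which 23.0% were called higher and 28.4% lower. The median log2 difference of the 40 genes was 0.03, against -0.03 over all. Quantile normalisation moved this split to 19 higher and 8 lower, with a member median of 0.31 and a median of 0.07 over all probe sets. Without buffalo 2 there were 6 higher and 10 lower, and without buffalo 3 there were 6 higher and 9 lower. PSMB2, PSMC4, PSMD2, PSME1 and PSMG2, all higher, and PSMB5, PSMB8, PSMC1, PSMC3, PSMD4, PSMD5, PSMD9 and PSMG1, all lower, passed in each of the 21 settings, quantile normalisation included.

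In the 20S core, 1 of 6 alpha genes and 2 of 7 constitutive beta genes were higher in buffalo, and 2 beta genes were lower. Over all probe sets tested, 23.0% were higher and 28.4% lower. PSMB5 read 1284, 1452 and 1448 in buffalo, below the lowest cattle array at 2005. The log2 difference was -0.67 (SE 0.09, limma adjusted p = 5.88e-05). PSMB1 read 1511, 1683 and 1541, each under the lowest cattle array at 1685, a difference of -0.37 (SE 0.13, adjusted p = 0.0317). This call was lost in 6 settings, among them quantile normalisation, where the value was -0.07 (adjusted p = 0.639), and the omission of any 1 buffalo array.

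PSMB2 and PSMB3, 2 structural subunits of the beta ring, were higher by 0.70 and 0.47, and PSMA1 by 0.36. The calls of PSMB3 and PSMA1 were lost without buffalo 2 and without buffalo 3, that of PSMA1 in 6 further settings. The alpha gene PSMA7 read 5221, 6175 and 6557 in buffalo, overlapping the cattle arrays, and its difference of -0.10 did not pass (adjusted p = 0.425). PSMB6 read 2257, 2676 and 2334, and PSMB7 read 2093, 2014 and 1760. Both overlapped cattle, with differences of 0.13 (adjusted p = 0.447) and -0.16 (0.322). After quantile normalisation PSMB6 passed, at 0.39 (adjusted p = 0.0114).

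Of the 6 ATPase genes, 2 were called higher and 3 lower, beside 23.0% and 28.4% of all probe sets tested. PSMC1 read 531.1, 630.9 and 660.5 in buffalo, all below the lowest cattle array at 1197. Its log2 difference of -1.15 was the lowest of the 40 genes (SE 0.13, limma adjusted p = 1.18e-05). PSMC4, the ATPase Rpt3, read 1442, 2648 and 2528, all above the cattle range of 800.4 to 1139, whose median was 1030. It was higher by 1.05 (SE 0.20, adjusted p = 0.000741), while in yak it read 1787, 1489 and 904.5 and its difference of 0.39 did not pass (adjusted p = 0.163) except without yak 3, at 0.67 (0.0266).

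PSMC3, the ATPase Rpt5, read 1877, 1887 and 1487 in buffalo, under the cattle range of 2277 to 3726 with its median of 3003. The log2 difference was -0.75 (SE 0.13, limma adjusted p = 0.000311). In yak this gene read 3231, 2893 and 2699, inside the cattle range, with a difference of 0.00 (adjusted p = 0.998). PSMC5 read 1020, 1076 and 1203 in buffalo, also below all cattle arrays, by -0.47 (SE 0.13, adjusted p = 0.00761). After quantile normalisation its difference was -0.17 (adjusted p = 0.297). PSMC6, or Rpt4, was higher by 0.41, a call that its second probe set turned around, as given below.

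Among the 7 other 19S subunits, 2 were higher and 2 lower in buffalo, near the 23.0% and 28.4% of all probe sets tested. PSMD4 read 754.6, 902.2 and 1079, below all cattle arrays, by -0.80 log2 units (SE 0.15, limma adjusted p = 0.000701). PSMD2, or Rpn1, a scaffold at the base that receives ubiquitin-carrying proteins, read 1711, 1670 and 1942. The cattle arrays read 1084 to 1362, with a median of 1201, so buffalo lay wholly above them, by 0.54 (SE 0.12, adjusted p = 0.00162). In yak PSMD2 read 1640, 1514 and 1182, and the difference of 0.24 did not pass (adjusted p = 0.140) except without yak 3, at 0.37 (0.0403). PSMD1, or Rpn2, a second scaffold of the base, was higher by 0.34, and PSMD13, or Rpn9, a lid subunit, stood at -0.40, and both calls were lost without buffalo 2, without buffalo 3 and in 5 or more further settings.

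Of the chaperones with a PSM symbol that assemble the 19S base, 1 of 3 was higher and 2 were lower in buffalo. Over all probe sets tested, 23.0% were higher and 28.4% lower. The median log2 difference of the 3 chaperones was -0.78. PSMD9, the chaperone p27, read 148.8, 125.4 and 181.4 in buffalo, below the lowest cattle array at 234.3. The log2 difference was -0.94 (SE 0.16, limma adjusted p = 0.000257). PSMD5, the chaperone S5b, read 361.6, 418.8 and 361.9 against 504.6 to 889.4 in cattle, with a median of 613.1, and was lower by -0.78 (SE 0.14, adjusted p = 0.000463). In yak PSMD5 read 846.6, 744.7 and 671.2, inside the cattle range, at 0.17 (adjusted p = 0.372). PSMD10, or gankyrin, was higher by 0.85 (SE 0.26, adjusted p = 0.0142) on the strength of 2 arrays. It read 206, 650 and 528 in buffalo, and its call was lost without buffalo 2 or buffalo 3.

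PSMG1, or PAC1, starts the assembly of the alpha ring together with PSMG2. It read 413.7, 707.7 and 599.6 in buffalo and 734.6 to 1335 in cattle, with a median of 997.2. Buffalo lay wholly below, by -0.82 log2 units (SE 0.15, limma adjusted p = 0.000495). Its partner PSMG2 was higher by 0.55 in buffalo. In yak PSMG1 read 1019, 1102 and 1057, inside the cattle range, at 0.08 (adjusted p = 0.726).

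Of the activators, PSME1 and PSME4 were higher in buffalo. PSME4 read 1882, 1338 and 1314, of which the lower 2 overlapped the highest cattle arrays, and the log2 difference was 0.66 (SE 0.20, limma adjusted p = 0.0149). This call was lost without buffalo 1, and against castrated males and females alone, whose PSME4 level was above that of the intact males. PSME1 was higher by 0.61 (SE 0.14, adjusted p = 0.00312), while its PA28 partner PSME2 did not pass. PSME2 was called lower without intact male 3, without female 2 and without female 3, at -0.38 to -0.40. PSMF1, the inhibitor, stood at 0.24 and did not pass, but did after quantile normalisation, at 0.48 (adjusted p = 0.00316). Fibroblast markers were lower in buffalo for 6 of 6 genes. Of 9 muscle markers, 5 were lower and 2 higher (MYH7 at 0.56 and CAPN3 at 1.42). Of 10 leukocyte markers, 3 were lower (CSF1R at -1.08, MSR1 at -1.16 and LAPTM5 at -1.46) and 1 was higher (CD3E at 0.28). Over all probe sets tested, 28.4% were called lower and 23.0% higher. The actin and GAPDH ratios, up to 1.73 and 1.5, reached higher values than in cattle. The part of these in the buffalo values was not tested.

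**Figure D3:**
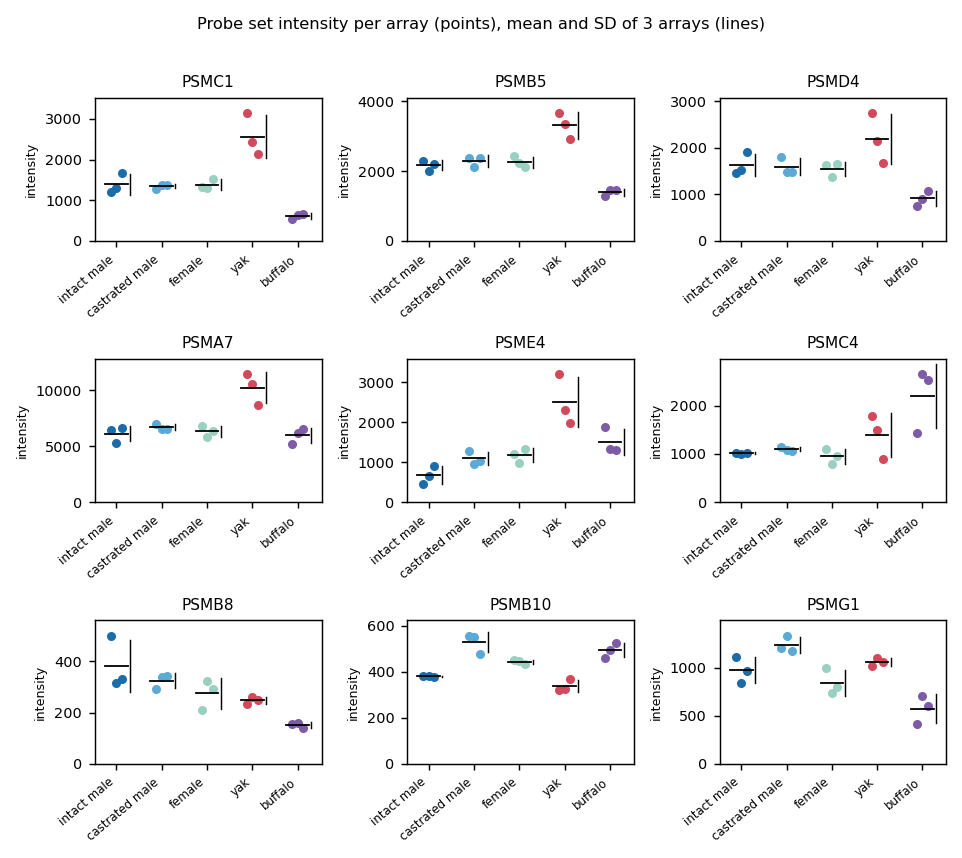
Probe set intensity on a linear axis from 0 for 9 proteasome genes, with 1 point per array, a horizontal line for the mean and a vertical line for the SD of the 3 arrays of each group. PSMC1 and PSMB5 separate yak (above cattle) from buffalo (below cattle) with no overlap, PSMC4 is highest in buffalo, and PSMB10 has its highest mean in castrated males.

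A direct comparison of buffalo with yak gave 3 higher and 16 lower genes among the 40. Over all probe sets tested, 19.5% were called higher and 22.7% lower. The median log2 difference was -0.18, against 0.01 over all. After quantile normalisation the counts were 10 higher and 13 lower, with medians of -0.02 and 0.06. The count of higher genes was 5 without yak 1 and 6 without buffalo 1.

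The log2 difference between buffalo and yak was -2.04 for PSMC1 (SE 0.16, limma adjusted p = 8.77e-07), -1.24 for PSMD4 (SE 0.19, adjusted p = 0.000185) and -1.23 for PSMB5 (SE 0.12, adjusted p = 3.19e-06). PSMD5 differed by -0.95, PSMG1 by -0.90, PSMC5 by -0.84, PSMB1 by -0.82, PSMA7 by -0.77 and PSMC3 by -0.75. PSME4, higher than in cattle in both species, differed between buffalo and yak by -0.71 (SE 0.25, adjusted p = 0.0346). That call was lost in 5 of 14 settings, at -0.46 after quantile normalisation (adjusted p = 0.158), -0.52 without yak 1 (0.149), -0.75 without yak 2 (0.0642), -0.63 without buffalo 2 (0.104) and -0.62 without buffalo 3 (0.108). The higher genes in buffalo were PSMB10, PSMC4 and PSME1. For PSMC4 the arrays overlapped, and its difference of 0.66 (SE 0.25, adjusted p = 0.0456) was lost in 6 of 14 settings, among them without yak 2, yak 3, buffalo 2 or buffalo 3. The call of PSMB7 at -0.48 (SE 0.16, adjusted p = 0.0246) was lost in 5 settings and that of PSMD9 at -0.55 (SE 0.19, adjusted p = 0.0356) also in 5. Neither PSMB6 at -0.31 (adjusted p = 0.144) nor PSMD2 at 0.30 (0.102) nor PSMB9 at -0.16 (0.319) passed, though PSMD2 did after quantile normalisation, at 0.59 (0.00245).

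Of the inducible subunits, 1 of 3 was lower and 0 higher in yak, beside 15.9% and 13.2% of all probe sets tested. In buffalo 2 of 3 were lower and 0 higher, beside 28.4% and 23.0%. With 3 genes these counts are descriptions. PSMB8, PSMB9 and PSMB10 take the places of PSMB5, PSMB6 and PSMB7 in the immunoproteasome. In the gene order of the RefSeq cattle assembly ARS-UCD2.0, PSMB8 and PSMB9 flank TAP1, a peptide transporter gene, next to MHC class II genes, whereas PSMB10 lies elsewhere. PSMB10 read 320.5, 324.4 and 369.6 in yak, below the lowest cattle array at 376.6. The log2 difference was -0.39 (SE 0.09, limma adjusted p = 0.00592), the one called decrease of a proteasome gene in yak. In buffalo PSMB10 read 461.7, 497.0 and 524.9, within the cattle range, at 0.14 (adjusted p = 0.199), which became 0.36 and passed after quantile normalisation (adjusted p = 0.00528). Buffalo exceeded yak by 0.53 (SE 0.11, adjusted p = 0.00171).

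PSMB8 read 233.5, 262.3 and 248.4 in yak and 153.8, 160.7 and 140.0 in buffalo. Cattle read 208.5 to 499.9, with a median of 322.3. The highest value was that of intact male 1, the array with the high leukocyte marker sum. The yak difference of -0.35 did not pass (SE 0.14, limma adjusted p = 0.0864) except without female 1, at -0.41 (0.0340), and the buffalo difference of -1.01 did (SE 0.14, adjusted p = 7.61e-05), with no overlap. It passed without intact male 1 as well. Of 10 leukocyte markers, 3 were lower and 1 higher in buffalo, near the 28.4% and 23.0% of all probe sets tested. The part of leukocytes in the PSMB8 and PSMB9 values was not tested. PSMB9 read 226.3, 276.3 and 249.5 in yak and 229.1, 239.7 and 199.1 in buffalo, against 249.8 to 334.8 in cattle, with a median of 287.9. Buffalo lay below all cattle arrays, by -0.36 (SE 0.10, adjusted p = 0.00906), a call lost after quantile normalisation and without buffalo 3, while yak overlapped them at -0.20 (adjusted p = 0.153).

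For each pair, the log2 intensity of the inducible subunit minus that of the constitutive one was set against its cattle mean, which compares arrays and not the level of the genes with each other. This test was added after the values were seen and restates the gene values above, so it is no independent support for them. In yak the PSMB8 minus PSMB5 difference was -1.14, -0.85 and -0.73, below the cattle range of -0.70 to 0.58. Its mean was -0.91 below cattle (exact two-sided permutation test, 3 against 9 arrays, p = 0.00455, the smallest this design allows, 0.0205 after adjustment over the 6 tests). The PSMB9 minus PSMB6 difference was -1.01, -0.53 and -0.37 in yak and -0.43 to 0.31 in cattle, with a mean of -0.64 (exact permutation p = 0.00909, adjusted 0.0205). PSMB10 minus PSMB7 was -1.12, -0.78 and -0.22 in yak and -0.41 to 0.29 in cattle, with a mean of -0.71 (exact permutation p = 0.0136, adjusted 0.0205).

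In all 3 pairs of yak the lowest array was yak 1. Leaving it out gave -0.45 (exact permutation p = 0.0727) for PSMB9 minus PSMB6 and -0.50 (0.0545) for PSMB10 minus PSMB7, and leaving out yak 2 gave -0.67 (0.0545) for the latter. Without the intact males the yak means were -0.78, -0.64 and -0.84 (exact permutation p = 0.0119 each, 3 against 6 arrays). In buffalo only PSMB9 minus PSMB6 passed among the 3 pairs, at -0.49 (exact permutation p = 0.0136, adjusted 0.0205), and not without buffalo 3 (p = 0.0727). PSMB8 minus PSMB5 stood at -0.33 (exact permutation p = 0.155, adjusted 0.155), since both of its members were lower, and PSMB10 minus PSMB7 at 0.30 (exact permutation p = 0.0818, adjusted 0.0982). The first of these reached an exact permutation p of 0.0273 at -0.56 after quantile normalisation and 0.0182 at -0.42 without female 1.

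**Figure D4:**
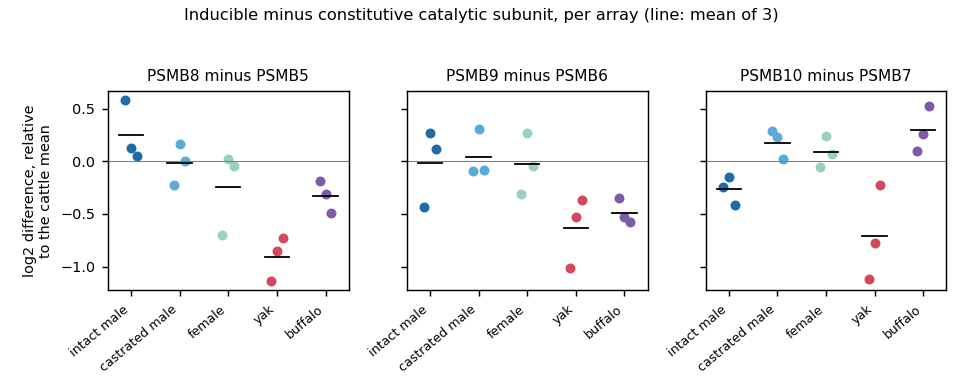
Log2 intensity of an inducible subunit minus that of its constitutive counterpart on each array, relative to the mean of the 9 cattle arrays, with lines for the means of 3 arrays. The yak points lie below 0 in all 3 pairs, with means of -0.91, -0.64 and -0.71, while the buffalo means are -0.33, -0.49 and 0.30.

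Of the 40 genes, 6 had a second probe set. Those of PSMB2 and PSMD4 gave the direction of the brighter ones in both species. For PSMB2 the second probe set read 0.76 in yak (limma adjusted p = 0.00566) and 0.47 in buffalo (0.0344), and for PSMD4 0.38 (0.103) and -0.98 (0.000291). For PSMC5 the buffalo difference was -2.27 on the second probe set (SE 0.32, adjusted p = 6.6e-05), against -0.47 on the brighter one. The probe sets of PSMC6 went opposite ways in buffalo, at -0.77 (SE 0.14, adjusted p = 0.000557) on the second and 0.41 on the brighter, so the direction of PSMC6 in buffalo is not settled here. PSMC2 did not pass on either probe set in either species.

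The genes of the core varied together from array to array within groups. After each group's mean was subtracted, the 78 pairs of constitutive alpha and beta genes had a median correlation of 0.72 over the 15 arrays, with a range of 0.36 to 0.93. The 78 pairs of 19S genes had a median of 0.54, ranging from -0.28 to 0.91, and all 780 pairs of the 40 genes one of 0.42. The median over all pairs of probe sets tested was 0.00. These are descriptions over arrays that share RNA quality and labelling within each array.

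The 3 pairs among PSMB8, PSMB9 and PSMB10 had correlations of -0.20 to -0.12. The correlation with the mean of the other members was 0.93 for PSMB4, 0.92 for PSMC4 and 0.91 for PSMA4, the highest values among the 40 genes. The lowest were -0.47 for PSMB9, -0.22 for PSMB8, -0.21 for PSMB10 and -0.19 for PSME1. PSME2, the partner of PSME1, stood at 0.08, near PSMC3 at 0.07 and PSMD13 at 0.05.

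The shared shift was widest in yak. Yak 1 was the highest of the 3 yak arrays in 33 of 40 genes and yak 3 the lowest in 33, with median deviations of 0.23 and -0.23 from the group mean. Over all probe sets tested the same deviations were 0.02 and -0.01. Set against the cattle mean, the median of the 40 genes was 0.43 in yak 1, 0.24 in yak 2 and 0.01 in yak 3. Yak 1 also had the highest actin ratio of the 15 arrays, at 1.93 against 1.51 and 1.49 in yak 2 and yak 3, while the same ratio of the GAPDH control probes was 1.2, 1.24 and 1.26, inside the cattle range of 1.13 to 1.34. The part of RNA quality in the yak values was not tested. In the females, female 2 was the lowest in 31 of 40 genes, with a median deviation of -0.16, and female 1 the highest in 26.

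**Figure D5:**
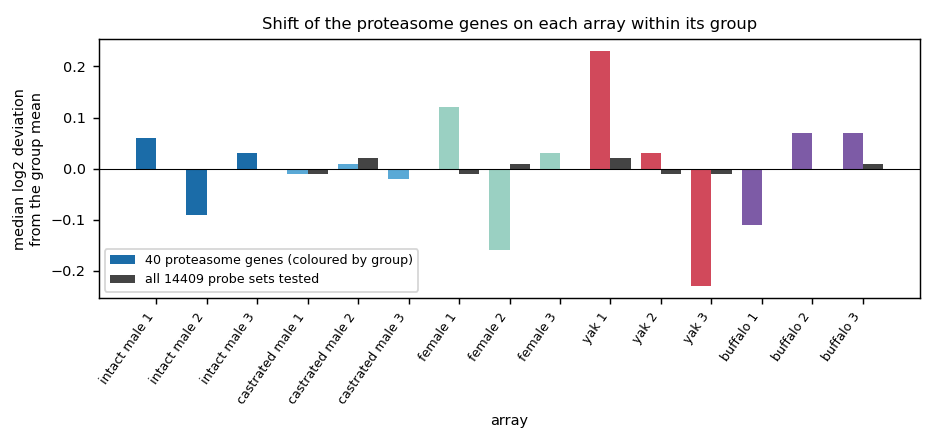
Bars give the median deviation of the 40 proteasome genes from their own group means on each array, coloured by group, beside the same median over all 14409 probe sets tested in dark grey. Yak 1 at 0.23 and yak 3 at -0.23 are the widest, while the dark grey bars stay between -0.01 and 0.02.

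Genes that work with the proteasome but carry no PSM symbol were counted in 4 lists, and none was called between the cattle groups. Over all probe sets tested, 13.2% were called higher and 15.9% lower in yak, and 23.0% and 28.4% in buffalo, and with 6 to 12 genes a list the counts below are given as descriptions. Among 12 partners bound to the particle or needed for its assembly or nuclear import, 3 were higher and 0 lower in yak (median log2 difference 0.28), and 3 were higher and 5 lower in buffalo (median -0.21). Among 8 genes of ubiquitin supply and substrate delivery, the counts were 3 higher and 0 lower in yak and 1 higher and 2 lower in buffalo. Among 6 regulators of subunit transcription they were 3 and 1 in yak and 1 and 1 in buffalo. Of 8 genes of class I antigen presentation, which uses peptides cut by the proteasome, 0 were higher and 3 lower in each species, with medians of -0.24 in yak and -0.33 in buffalo. Quantile normalisation changed the buffalo counts to 4 higher and 1 lower for ubiquitin supply and delivery and to 3 higher and 1 lower for the regulators, and it left those of the partners as they were. In yak, quantile normalisation brought in POMP among the partners, at 0.46 (limma adjusted p = 0.044). UBQLN2 of the delivery genes, at 0.39 (0.0529), and TAP1 of class I presentation, at -0.46 (0.0733), were lost. Both comparisons share the cattle arrays.

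In yak, NFE2L2, a stress-responsive transcription factor that can raise subunit genes, was higher by 0.84 (SE 0.15, limma adjusted p = 0.00149). Its mean intensity was 1843 ± 433 (SD, n = 3) in yak and 1016 ± 141 (SD, n = 9) in cattle. PAAF1, a protein that binds the 19S ATPases, was higher by 1.00, and FBXO7, an F-box protein that binds the proteasome inhibitor PSMF1, by 0.79. NFYA and NFYC encode subunits of the CCAAT-binding factor NF-Y, and the first stood at 0.32 and the second at -1.53 in yak (adjusted p = 0.00655 and 2.85e-05). TAPBP, which loads peptides on class I molecules, was lower by -0.92.

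In buffalo, UCHL5, a deubiquitinase of the 19S particle, was lower by -1.39 (SE 0.13, limma adjusted p = 1.98e-06). Its mean intensity was 906.2 ± 50.1 (SD, n = 3) in buffalo and 2414 ± 352 (SD, n = 9) in cattle. AKIRIN2, needed for import of proteasomes into the nucleus, was lower by -2.06 (SE 0.25, adjusted p = 1.52e-05), with means of 377.7 ± 163 (SD, n = 3) and 1546 ± 354 (SD, n = 9). UFD1, a cofactor of the segregase VCP, was lower by -1.18, and UBE3C, a ubiquitin ligase bound to the proteasome, by -1.08. CALR, a chaperone of class I loading, was lower by -2.27 and NFYC by -1.33. The match of buffalo transcripts to the probes of these genes was not tested.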

How the data were processed

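RNA was extracted with Trizol and labelled as biotinylated cRNA, per the labels' protocols. The deposited table holds 1 linear intensity per probe set and array, as the authors made it. For it, software and normalisation steps were not given in the sources used here. Control probe sets (112) were left out, and log2(intensity + 16) was taken with no further normalisation. Probe sets with a mean above the 40th percentile were tested (14409; 9607 were not). Group means were fitted with limma 3.58.1 (lmFit, eBayes with trend) in R 4.3.3, on 9 arrays for cattle groups and on all 15 for species, the 3 cattle groups weighted equally. P-values were adjusted by Benjamini-Hochberg over all probe sets tested, with a threshold of 0.05. Fold changes are on the log2(intensity + 16) scale and understate those of dim probe sets. The fit was tested on simulated data.

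Gene names are those of the platform table, and 46 of 46 entries matched the RefSeq table with 0 symbols changed. Members and lists were chosen with earlier results of these data known. Arrays are given in full for the 14 genes with the smallest adjusted p and the 3 catalytic pairs. Genes named beyond these, where their role had few calls, were chosen after their values were seen, as were the genes at either end of the order of correlations. At most 6 genes of the pathway lists are named per species. Alternatives changed the added value, the filter, the normalisation, the arrays fitted, the probe set per gene and the replicate block. A planned search for promoter motifs was not run.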

Additional observations from a re-analysis of the deposited data

How the results depend on the processing

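Calls of single proteasome genes held in 6 of 14 cases for yak against cattle, 13 of 23 for buffalo against cattle and 14 of 19 for buffalo against yak under every alternative run, and 1 gene changed direction. PSMC6 in buffalo was -0.18 (adjusted p = 0.244) as the mean over its probe sets. Quantile normalisation gave 19 higher genes in buffalo against cattle and 10 against yak. For buffalo against cattle, it raised the share of higher ones among all probe sets called from 44.8% to 56.0%. Among the proteasome genes called, that share went from 47.8% to 70.4%. The cause was not tested. With all 15 arrays fitted together, 1 gene passed in castrated and 1 in female against intact males. Leaving out 1 array in turn gave 0 to 1 genes in each of these comparisons. It gave 6 to 19 genes in yak against cattle (5 to 18 higher, 1 to 2 lower), 15 to 24 in buffalo against cattle (6 to 12 higher, 9 to 13 lower) and 2 to 6 higher genes in buffalo against yak.

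With the replicate number as a block, 11 genes passed in yak against cattle, 23 in buffalo against cattle and 18 in buffalo against yak. Deviations of same-numbered arrays correlated at -0.33 to 0.15, and no comparison had every value over 0.1, so the numbers were not taken to pair the animals.

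With 3 arrays a group, differences near the threshold rest on single animals, and the counts fell furthest without yak 1 or yak 2 in yak and without buffalo 2 or buffalo 3 in buffalo. Probe match in yak and buffalo was not tested.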
